A study of Mus musculus with 8 samples.

Results

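The CHD proteins (Chd1 to Chd9) are ATP-driven chromatin remodelers, and the arrays carried 13 probes for the 9 genes among 55681 probes for 36163 gene names. The probes were taken by the gene name in the array annotation, control spots excepted, and each probe was followed alone. Chd2 had 4 probes, Chd6 had 2, and the other 7 genes had 1 each. RNA came from mouse ES cells of the E14Tg2A line (strain 129/Ola) that were driven towards neurons in culture. The 4 stages were undifferentiated ES cells in serum and LIF (0 days in vitro), epiblast-like aggregates (ELA, 2 days) floating in a chemically defined minimal medium (CDMM) without serum or LIF, neural progenitor cells (NPC, 6 days) attached on poly-ornithine and laminin in CDMM, and NPC/Neu (10 days), replated on the same coating in CDMM without B27. At each stage 1 array was hybridized with total RNA and 1 with Ago-RNA, that is, RNA immunoprecipitated from the cytosolic fraction with a pan-Argonaute antibody (clone 2A8). Each of the 8 arrays held RNA pooled from 3 experiments of the 1 cell line, so no value has a replicate and no p-value is given. Immunoprecipitations with control antibody were not used here.

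CHD proteins share a pair of chromodomains and an SNF2-type ATPase that slides or evicts nucleosomes. Chd1 and Chd2 work with transcribing RNA polymerase II, and Chd1 is known for keeping ES cell chromatin open. Chd3, Chd4 and Chd5 are alternative ATPases of NuRD, a complex that joins remodeling to histone deacetylation. Chd6, Chd7, Chd8 and Chd9 form the remaining subfamily, in which CHD7 is mutated in CHARGE syndrome and CHD8 in a form of autism. Argonaute (Ago) proteins carry microRNAs to matching sites, mostly in 3′ UTRs, where they repress translation and destabilize the mRNA.

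The place of a probe in the transcript set what it could measure. In the mm9 genome, 8 probes lay wholly in the 3′ UTR of the longest coding transcript, 1 of Chd2 spanned the stop codon, 3 lay in coding sequence, and 1 of Chd6 matched no coding transcript over its whole length. The sequences of the 4 probes that do not touch the 3′ UTR are shown because the readings of Chd1, Chd2 and Chd6 depend on them. In the Chd1 probe the capitals mark the 13 bases of exon 33 that follow 47 bases of exon 32 (of 36; chr17:15901939-15901985 and chr17:15903295-15903307, plus strand), so it reads spliced RNA. The Chd2 probes lie in exon 4 (chr7:80660613-80660672, minus strand) and exon 30 (chr7:80600413-80600472, minus strand) of 39. In the Chd6 probe the first 56 bases lie in exon 17 of 37, and the capitals mark the last 4 bases, which run past the annotated end of that exon (chr2:160834087-160834146, minus strand). Its whole length is exonic only in a non-coding transcript that keeps the intron, so its readings for Chd6 mRNA are uncertain.
Chd1 A_52_P329250: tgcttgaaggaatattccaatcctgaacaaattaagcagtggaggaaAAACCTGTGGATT
Chd2 A_55_P2175469: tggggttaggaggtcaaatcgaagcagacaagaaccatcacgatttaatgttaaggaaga
Chd2 A_65_P01643: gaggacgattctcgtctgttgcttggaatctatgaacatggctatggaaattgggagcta
Chd6 A_55_P2073457: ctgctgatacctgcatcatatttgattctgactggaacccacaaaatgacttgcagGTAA

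Signals are given as log2 intensity after background correction and quantile normalization over the 8 arrays, and levels of different probes are not comparable. Ago enrichment (E) of a probe at a stage is its log2 signal in Ago-RNA minus that in total RNA, and ΔE is the difference of E between stages. Technical error was taken from 399 probes printed in at least 10 spots, whose spot SD was 0.13 to 0.15 for E, 0.18 to 0.21 for ΔE and 0.13 to 0.18 for a change in total RNA between consecutive stages. It covers spots of an array and not cultures or immunoprecipitations. Raw signals were brightest on the Ago-RNA array of ES, with an upper quartile of 3039 against 1060 to 1774 on the others. By total RNA, 4 of 5 pluripotency genes (means over probes) had fallen by at least 1 on the log2 scale in ELA and all 5 in NPC. The Nanog probes disagreed, with changes of -2.40 and 0.31 from ES to ELA. Of 3 primed-state genes, 1 was up by at least 1 in ELA, Fgf5 (2.81), beside 0.53 for Otx2 and 0.82 for Pou3f1. All 4 progenitor genes were up in NPC and all 3 neuronal genes found (of 4) in NPC/Neu. Most markers of other cells were at low or modest level, but the Kdr probe A_55_P2094469 read 13.27 to 13.54 on the total RNA arrays. Summed linear signals over the probes of 4 endoderm genes went from 640 in ES to 3399 in NPC/Neu, with 1 of 4 genes (Foxa2) up. Those of 2 glial genes went from 493 to 1021 with Olig2 up. Those of 3 mesoderm genes lay between 10523 and 13372 with 2 of 3 up in NPC/Neu, T and Kdr. Kdr was up by the mean of probes that disagreed (2.89 and -0.03). Afp, Gata6 and Mixl1 were not well above background on any total RNA array. The part of these cells in the values below was not tested.

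In ES cells the mRNAs of 8 of the 9 CHD genes were, after normalization, at least 2 times richer in Ago-RNA than in total RNA (Chd6 at 1 of its 2 probes). E was 1 or more at 8 of 13 probes, which covered every member but Chd2, against 6.86% of all 55650 probes measured. The median E was 1.48 over the CHD probes and 0.02 over all probes. All 13 probes were well above background on every array, except that the Chd2 probe across the stop codon (A_66_P101171) was not on either ELA array. Total RNA was not restricted to the cytosol as the Ago-RNA was, and this difference enters every E.

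Within the NuRD group, Chd4, the main NuRD ATPase of ES cells, had the highest E of all members in ES, though not with the 75th percentile scaling of processed signals (1.62, behind 2.33 for Chd1, 1.92 for Chd7 and 1.91 for Chd3). Its log2 signal on the Ago-RNA arrays was 18.72, 16.90, 18.09 and 18.85 in ES, ELA, NPC and NPC/Neu. On the total RNA arrays it was 15.86, 16.26, 16.22 and 16.65 in the same order. E was thus 2.86 in ES, a ratio of 7.28, followed by 0.64, 1.87 and 2.20. ELA stood apart from the other stages in Ago-RNA and not in total RNA. Chd3, the NuRD ATPase known from differentiated and neuronal cells, had Ago-RNA signals of 13.26, 12.46, 16.20 and 18.39. Its total RNA signals were 11.49, 12.12, 15.02 and 16.05, and its E was 1.76, 0.34, 1.18 and 2.35. Both fractions of Chd3 were far higher in the neural stages. Chd5, a neuronal NuRD ATPase and tumor suppressor, had Ago-RNA signals of 11.21, 9.78, 7.61 and 11.51 and total RNA signals of 9.90, 9.33, 7.35 and 9.57. E of Chd5 was 1.31, 0.45, 0.26 and 1.93. In NPC the Chd5 signals were close to the lowest signals called well above background on those arrays (7.02 for Ago-RNA and 6.75 for total RNA), and its Ago-RNA was under the binding threshold of 7.82, so its E there has little meaning.

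The Chd6 to Chd9 group held the next highest values. Chd7, a regulator of neural crest and neural progenitor genes, had Ago-RNA signals of 16.60, 15.33, 17.29 and 18.54 and total RNA signals of 14.10, 14.51, 15.46 and 16.33. Its E was 2.50, 0.83, 1.84 and 2.21. Chd8, which binds β-catenin and dampens its targets, had Ago-RNA signals of 18.00, 15.54, 16.53 and 17.92 over total RNA signals of 15.50, 15.14, 15.11 and 15.60. E of Chd8 was 2.50, 0.40, 1.42 and 2.32, so its total RNA was almost level while its Ago-RNA moved. Chd9, studied mostly in bone progenitors, had Ago-RNA signals of 14.77, 14.27, 12.22 and 13.16 and total RNA signals of 13.10, 13.08, 11.18 and 11.85. Its E was 1.67, 1.19, 1.04 and 1.31, the flattest course among the members with E of 1 or more in ES. Chd6 is described with its probe pair below.

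Chd1 had the highest E in ELA. Its Ago-RNA signals were 12.59, 12.28, 11.52 and 11.52, its total RNA signals were 10.42, 10.84, 9.84 and 9.14, and E was 2.17, 1.44, 1.68 and 2.37. Chd1 thus never came under an E of 1, which among the members was shared only by Chd9.

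**Figure D1:**
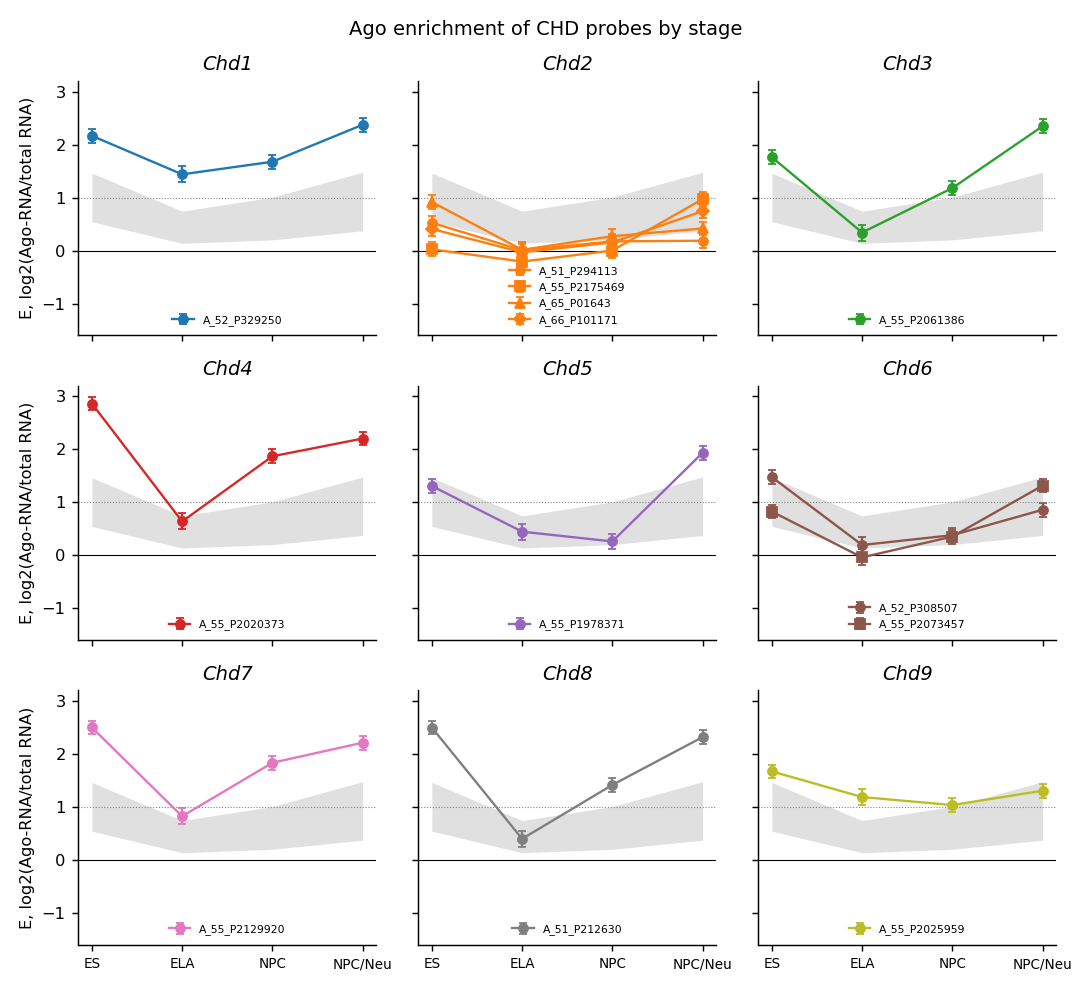
E (log2 of Ago-RNA over total RNA, y axis) of each CHD probe at the 4 stages (x axis), 1 panel per gene and 1 line per probe, with the spot SD of E as error bars; the gray band is the interquartile range of other probes for coding transcripts as long as the CHD ones, and the dotted line marks an E of 1. Chd4, Chd7 and Chd8 drop from 2.50 or more in ES to 0.83 or less in ELA and climb back, while all 4 Chd2 probes stay under 1 throughout.

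From ES to ELA, E was lower at all 13 CHD probes, while 50.2% of all probes were lower. The 13 include the Chd2 probe across the stop codon, which has no readable ratio in ELA, and E was lower at all 12 others. The median ΔE was -0.86 over the CHD probes and 0.00 over all probes. ΔE was -1 or less at 5 of 13 probes, against 4.46% of all probes, and these belonged to Chd4 (-2.22), Chd8 (-2.10), Chd7 (-1.68), Chd3 (-1.42) and Chd6 (-1.28 at its 3′ UTR probe). The smallest differences were those of the exon 4 probe of Chd2 (-0.23), which is near the spot SD of 0.20, and of Chd9 (-0.48), leaving out the probe across the stop codon.

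Lower Ago-RNA and, for some members, higher total RNA made up these differences. Ago-RNA of all 13 probes was lower in ELA than in ES (of all 12 without the probe across the stop codon), by 0.20 to 2.47 on the log2 scale, whereas 48.8% of all probes were lower. Changes in total RNA went both ways, from -0.57 (Chd5) to 0.63 (Chd3). Chd4 total RNA was higher in ELA by 0.40 and Chd7 by 0.41, beside Ago-RNA changes of -1.82 and -1.26. For Chd3 the changes were 0.63 in total RNA and -0.79 in Ago-RNA, and for the 3′ UTR probe of Chd6 0.55 and -0.73. At Chd1 (0.42 and -0.31) and the second Chd6 probe (0.52 and -0.35) total RNA changed slightly more than Ago-RNA. With spot SDs of 0.18 and 0.14 for these changes, which of them was larger is uncertain at both probes. Chd8 was lower in both fractions, with changes of -0.37 in total RNA and -2.47 in Ago-RNA. Chd5 was the other member with lower total RNA beyond the spot SD (-0.57), and its Ago-RNA changed by -1.43.

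**Figure D2:**
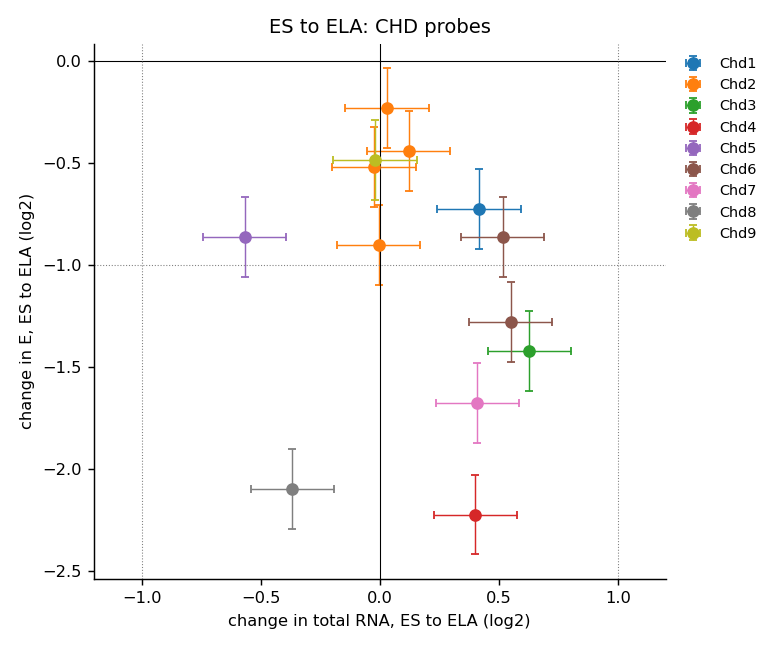
Change in E (y axis) against change in total RNA (x axis) from ES to ELA for the 13 CHD probes, both as log2 differences with spot SDs as error bars; dotted lines mark a log2 difference of 1. All points lie below 0 on the y axis, including the dim Chd2 probe that was not above background in ELA, from -0.23 to -2.22, and within -0.57 to 0.63 on the x axis.

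By the thresholds that the study's methods set for release from Ago (Ago-RNA above the binding threshold, E of at least 2 before and at most 0.5 after, ΔE of at least 1.5 in size), the Chd8 probe was released from ES to ELA, as were 0.192% of all probes. With the limit after release relaxed from 0.5 to 1.2, Chd4 and Chd7 qualified too, for 3 of 13 probes against 0.304% of all probes. E in ELA was 0.40 for Chd8, just inside the stricter limit, and 0.64 for Chd4, just outside it. With the main processing (offset 50), no CHD probe was loaded on Ago at any of the 3 transitions under either limit. None was released at the later ones. Chd5 came close to loading from NPC to NPC/Neu, with E of 0.26 and 1.93. It met the rule with an offset of 0 (0.37 and 2.01, ΔE 1.64) and with normalization within each fraction (0.19 and 2.27, ΔE 2.07). Its Ago-RNA in NPC was under the binding threshold. For Chd4, Chd7 and Chd8 the size of E and ΔE depended on the scaling. On processed signals as the scanner wrote them, scaled by the 75th percentile of each array, E in ES came to 1.62 for Chd4, 1.92 for Chd7 and 1.40 for Chd8, ΔE to -1.14, -1.19 and -1.11, and none was released. Quantile normalization within each fraction raised E of Chd8 in ELA to 0.69, which also ended its call.

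From ELA to NPC, E was higher at 11 of 13 CHD probes, against 50.2% of all probes. It rose by 1 or more for Chd4 (1.23), Chd8 (1.02) and Chd7 (1.01), that is, at 3 of 13 probes against 2.21% of all probes. Chd3 was next at 0.84. The exceptions with lower E were Chd5 (-0.18) and Chd9 (-0.15), both within the spot SD of 0.21. Rises within it were those of the 3′ UTR probes of Chd2 (0.17) and Chd6 (0.19). The dim Chd2 probe, with no readable ratio in ELA, also rose within it (0.19), and the exon 4 probe of Chd2 was at it (0.21). In NPC, E was 1 or more at 6 of 13 probes (3.7% of all probes), namely those of Chd1, Chd3, Chd4, Chd7, Chd8 and Chd9. In ELA this had held at 2 of 13 probes (2.84% of all probes).

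From NPC to NPC/Neu all 13 CHD probes were higher in E, against 51.4% of all probes. The gain reached 1 for Chd5 (1.67) and Chd3 (1.17), 2 of 13 probes against 2.06% of all probes. The Chd5 value rests on its E in NPC, where its Ago-RNA was under the binding threshold, and it was 2.07 with normalization within each fraction. Chd3 was under 1 with the 75th percentile scaling (0.78) and with normalization within each fraction (0.94), where other probes passed instead, the second of Chd6 under both (1.01 and 1.04) and the exon 4 probe of Chd2 under the former (1.04). At the last stage E was 1 or more at 8 of 13 probes (7.52% of all probes), again 1 probe for every member but Chd2. For Chd6 the probe past that mark was no longer the 3′ UTR probe (1.48 in ES, 0.86 in NPC/Neu) but the one in exon 17 (0.83 in ES, 1.31 in NPC/Neu). From the first stage to the last, E differed by -0.66 for Chd4, -0.29 for Chd7 and -0.18 for Chd8, and by 0.58 for Chd3, 0.63 for Chd5 and 0.21 for Chd1. The spot SD of that difference was 0.19, so Chd8 ended within it. With the 75th percentile scaling the direction was reversed for Chd4 (E of 1.62 in ES, 1.84 in NPC/Neu) and Chd8 (1.40, 1.86). That scaling also reversed it for Chd3 (1.91, 1.84) and kept it for Chd7, Chd5 and Chd1. Normalization within each fraction gave 2.22 and 2.29 for Chd3.

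The order of the members by E changed between stages. In ES it ran Chd4 (2.86), Chd7 (2.50), Chd8 (2.50), Chd1 (2.17), Chd3 (1.76), Chd9 (1.67), the 3′ UTR probe of Chd6 (1.48), Chd5 (1.31) and then the second Chd6 probe and the Chd2 probes. With the 75th percentile scaling the order was Chd1 (2.33), Chd7 (1.92), Chd3 (1.91), Chd4 (1.62), Chd9 (1.56), Chd6 (1.56), Chd5 (1.46) and Chd8 (1.40). In the order under quantile normalization, neighbours that did not differ beyond the spot SD of a difference between probes (0.18) were Chd7 and Chd8, Chd3 and Chd9, and Chd6 and Chd5. In ELA the order was Chd1 (1.44), Chd9 (1.19) and Chd7 (0.83), and from Chd7 downwards no neighbours differed by more than 0.21, the spot SD of such a difference there. In NPC Chd4 (1.87), Chd7 (1.84) and Chd1 (1.68) led without steps beyond 0.19. In NPC/Neu the highest members, Chd1 (2.37), Chd3 (2.35), Chd8 (2.32), Chd7 (2.21) and Chd4 (2.20), were likewise separated by steps within 0.18. By the mean over its probes Chd2 was lowest at every stage (0.47, -0.05, 0.15 and 0.58). Of single probes, its exon 4 probe was lowest in ES, ELA and NPC and its 3′ UTR probe in NPC/Neu. In ELA and NPC the gap to the next probe (0.17 and 0.15) was within the spot SD of a difference. Other Chd2 probes stood above a Chd6 probe in ES, ELA and NPC/Neu and above Chd5 in NPC.

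All CHD transcripts are long, and long transcripts had high E on these arrays. The longest coding transcript was between 6697 (Chd4) and 11565 bases (Chd9), against a median of 2956 bases over genes with signals above the binding threshold. Among the other probes for coding transcripts in this range of length, with a mean signal above the threshold (1391 probes in ES, 919 genes), E was 1 or more for 52.3% in ES, 12.2% in ELA, 25.5% at the progenitor stage and 48.3% at the last stage. The CHD counts of 8, 2, 6 and 8 of 13 were near these shares at the outer stages and in ELA. The median E of these long transcripts was 1.04 in ES and 0.42 in ELA, compared with 1.48 and 0.34 for the CHD probes. E was lower in ELA for 80.1% of them, and ΔE was -1 or less for 23.0%, against the 5 of 13 CHD probes. Ago-RNA was lower in ELA for 66.1% of them, with a median change of -0.34 beside -0.73 for the CHD probes. From ELA to NPC, E was lower for 35.2% of them, and their median ΔE was 0.23 beside 0.24 for the CHD probes. Gains of 1 or more were made by 4.42% of them from ELA to NPC and 6.21% from NPC to NPC/Neu, and E was higher in NPC/Neu than in NPC for 79.5%. Of the CHD probes, 12 of 13 had a mean signal above the threshold.

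Chd2, a remodeler of transcribed genes that is mutated in a childhood epilepsy, was the member with little Ago enrichment despite a transcript of 9032 bases. Its probes lie 8080, 4611, 2923 and 913 bases from the 3′ end. The exon 4 probe had Ago-RNA signals of 11.43, 11.23, 12.08 and 12.56, total RNA signals of 11.41, 11.44, 12.08 and 11.58, and E of 0.02, -0.21, 0.00 and 0.97 from the first stage to the last. The exon 30 probe had Ago-RNA signals of 12.06, 11.15, 12.23 and 12.27, total RNA signals of 11.14, 11.14, 11.96 and 11.85, and E of 0.92, 0.01, 0.27 and 0.42. These probes disagreed beyond the spot SD of a difference between probes at all 4 stages, with the exon 30 probe higher in ES, ELA and NPC and lower in NPC/Neu. The 3′ UTR probe (A_51_P294113) had Ago-RNA signals of 11.82, 11.27, 12.02 and 12.18, total RNA signals of 11.29, 11.27, 11.85 and 12.00, and E of 0.53, 0.01, 0.18 and 0.19. The probe across the stop codon was dim, with signals between 7.02 and 7.90 on all arrays and E of 0.41 in ES, 0.15 in NPC and 0.74 in NPC/Neu, with no ratio read from it in ELA. At no stage did any Chd2 probe reach an E of 1, although quantile normalization within each fraction raised the exon 30 probe to 1.37 in ES and the exon 4 probe to 1.44 in NPC/Neu. The exon 4 probe also reached 1.09 in NPC/Neu with the 75th percentile scaling. The dim probe came to 1.03 there with an offset of 0 and to 1.52 with quantile normalized processed signals.

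Chd6, a remodeler that responds to DNA damage and oxidative stress, was read by a probe pair. The 3′ UTR probe had Ago-RNA signals of 11.10, 10.37, 10.78 and 11.35 and total RNA signals of 9.63, 10.18, 10.40 and 10.49. The exon 17 probe had Ago-RNA signals of 10.01, 9.67, 10.12 and 11.31 and total RNA signals of 9.19, 9.70, 9.76 and 9.99. E was 1.48, 0.19, 0.38 and 0.86 at the first and 0.83, -0.04, 0.35 and 1.31 at the second. Both were lowest in ELA. From ES to NPC/Neu they differed in direction, with E changing by -0.62 at the first and 0.49 at the second. They differed beyond the spot SD of a difference between probes at both ends of the series and in ELA.

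The 3′ UTRs were searched for the words that pair with miRNA seeds, to set Ago enrichment beside the sites a miRNA could use. The families were miR-290 and miR-302, taken by miR-294-3p and miR-302b-3p, which share a seed, and let-7 and miR-9, which appear with differentiation. The study describes the miR-290 cluster as more abundant in ES cells and the miR-302 cluster as more expressed in epiblast stem cells. From ES to ELA it found the former down and the latter up. Mature sequences from RefSeq (GRCm38.p6) are shown with the seed, bases 2 to 8, in capitals.
mmu-miR-294-3p: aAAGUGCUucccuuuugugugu
mmu-miR-302b-3p: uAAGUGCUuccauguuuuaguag
mmu-let-7a-5p: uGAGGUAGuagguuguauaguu
mmu-miR-9-5p: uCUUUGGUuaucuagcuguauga

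The word that pairs with the shared seed of miR-290 and miR-302 (AGCACTT, searched on the transcript strand of the longest coding transcript) was in the 3′ UTRs of 2 of 9 members, Chd2 and Chd6, against 13.0% of 19815 3′ UTRs. Chd2, the member with the lowest E, held it 2 times in 2976 bases of 3′ UTR, at bases 41 and 149 (chr7:80574506-80574512 and chr7:80574398-80574404, minus strand, in the last exon), and the former site lies inside the probe across the stop codon. Chd6 held it at base 861 of 2322 (chr2:160774169-160774175, minus strand, last exon). Of 3′ UTRs close to that of Chd2 in length (shorter over longer at least 0.8), 30.6% held the word. For Chd6 that share was 25.1%, and over the 9 members it ran from 4.7% (Chd8) to 32.5% (Chd5). The word was not in the 3′ UTRs of Chd4 (590 bases), Chd8 (441 bases) or Chd7 (1004 bases), the members with the highest E in ES under quantile normalization (not with the 75th percentile scaling, where Chd1 led and Chd8 had 1.40), where 5.73%, 4.7% and 10.5% of 3′ UTRs of like length had it. The let-7 word (CTACCTC, in 8.24% of all 3′ UTRs) was in 1 member, Chd4, at base 427 (chr6:125080446-125080452, plus strand, last exon). Of 3′ UTRs close to that of Chd4 in length, 4.19% held it. The miR-9 word (ACCAAAG, in 10.9% of all) was in 0 of 9. A word is a description of the sequence and no evidence that a miRNA binds there, and other sites, other transcripts and the coding sequence were not searched. The sites are shown with flanks and with the word in capitals.
Chd2 base 41: ggaagtcatcaAGCACTTgggcgttctg
Chd2 base 149: gcagctgaaggAGCACTTgaaggagtcg
Chd6 base 861: ggtaatcgctcAGCACTTgctagattct
Chd4 base 427: gcgagacacagCTACCTCtgttggcatc

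Total RNA of the members diverged in the neural stages. From ES to NPC/Neu it rose by 1 or more on the log2 scale at 2 of 13 probes, Chd3 and Chd7 (11.1% of all probes), and fell by as much at 2 of 13, Chd1 and Chd9 (10.9% of all probes), shares near those of the array as a whole. Among the other probes of long transcripts described above, this change had a median of 0.46 and quartiles of -0.29 and 1.47. Chd3 rose by 4.55, or 23.5-fold, by 0.63 from ES to ELA, 2.90 from ELA to NPC and 1.03 from NPC to NPC/Neu. Its range over the processing settings was 19.1-fold to 26.3-fold. Chd7 rose 4.70-fold in smaller steps, 0.95 from ELA to NPC and 0.87 from NPC to NPC/Neu, and 3.07-fold with the 75th percentile scaling. Their Ago-RNA also ended above ES, by 5.14 for Chd3 and 1.95 for Chd7, as it did by 1.29 at the second Chd6 probe and 1.12 at the exon 4 probe of Chd2. In bulk RNA, fewer cells with a transcript and less of it per cell cannot be told apart.

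Chd1 total RNA was lower in NPC/Neu than in ES by 2.42-fold (log2 change of -1.28) and that of Chd9 by 2.37-fold (-1.25). From ELA to NPC, total RNA fell by 1 or more at 2 of 13 probes (6.38% of all probes), those of Chd5 (-1.98) and Chd9 (-1.90). The Chd5 fall ended near the floor in NPC and ran from -1.86 to -2.87 over the settings. Chd1 was just short of the limit (-0.99). It ran from -0.92 to -1.08, and 3 of 13 probes passed with offsets of 16 and 0 and with quantile normalized processed signals. Chd9 came back by 0.67 at the last step. Chd5 came back by 2.22, to a level 0.33 under that in ES. From ES to NPC/Neu, Chd4 changed by 0.79 and Chd8 by 0.10, or 0.048 and -0.66 with the 75th percentile scaling. Chd2 was higher by 0.14 to 0.71 over its probes and Chd6 by 0.80 and 0.86.

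**Figure D3:**
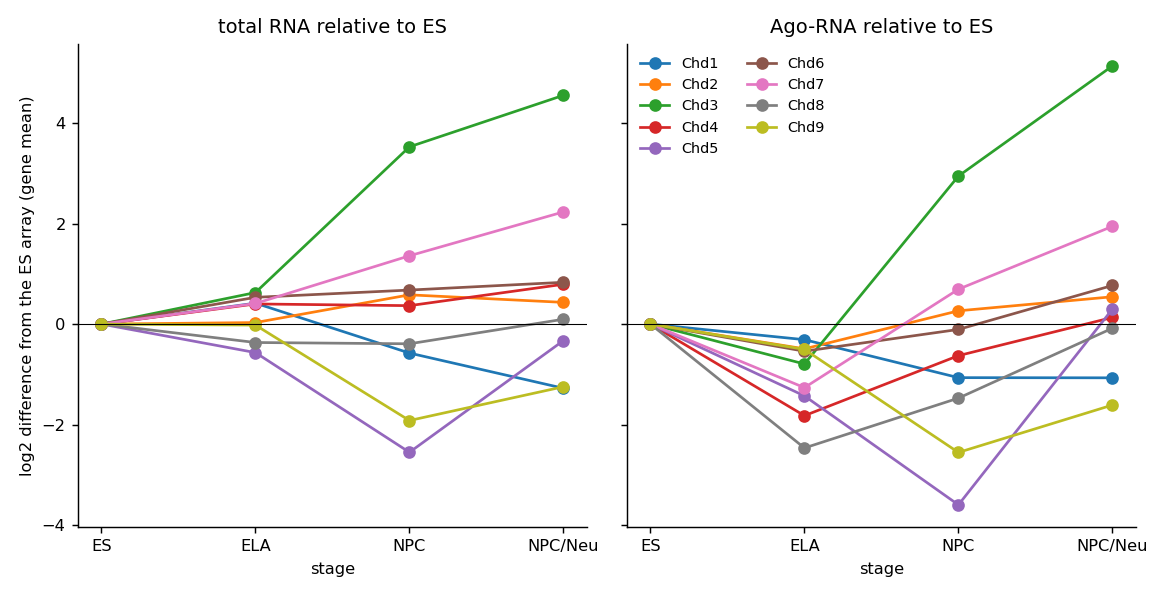
Log2 difference from the ES array in total RNA (left) and Ago-RNA (right) at each stage for the 9 CHD genes, as the mean over the probes of a gene (1 probe for all but Chd2 and Chd6). In ELA all genes lie below 0 in Ago-RNA while total RNA stays between -0.57 and 0.63, and Chd3 ends highest in both.

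The partners of the CHD proteins were followed in the same way. The 12 NuRD partner genes (deacetylases, Mta, Mbd, Rbbp and Gatad2 subunits) had 22 probes with a median E of 0.46 in ES, of which 5 were at 1 or more (6.86% of all probes), and a median ΔE from ES to ELA of -0.53, with 5 at -1 or less (4.46% of all probes). Among them Mta2, a scaffold of the complex, went from an E of 1.13 to -0.15 (ΔE -1.28), and Cdk2ap1, a small NuRD subunit, from -0.81 to -0.22 (ΔE 0.59). The 4 partners of Chd8 (5 probes) had a median ΔE of -0.78 with 2 at -1 or less. The lowest was that of Ctnnb1, or β-catenin, which went from 2.06 to 0.38 (ΔE -1.67), and the highest that of Rbbp5, a histone methyltransferase subunit (ΔE -0.26). The 4 partners of Chd1 in transcription (6 probes) had a median ΔE of -0.43 with 2 at -1 or less, from -1.80 for the elongation factor subunit Supt5h to 0.16 for the Paf1-associated Rtf1.

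The 11 other SNF2-type ATPases (16 probes) came nearest to the CHD genes. Their median E was 1.43 in ES, with 12 of 16 probes at 1 or more (6.86% of all probes and 52.3% of long transcripts), and 0.32 in ELA, with 0 of 16 (2.84% and 12.2%). Their median ΔE was -0.997, with 8 of 16 at -1 or less (4.46% and 23.0%). The long-transcript shares are those for the CHD range of length, which was not matched to these ATPases. Smarca4, the ATPase of the BAF complex in ES cells, had the lowest ΔE (-2.15, from 2.53 to 0.38), and Smarca2, its paralog in differentiated cells, the highest (-0.06, from 0.85 to 0.79). Smarca4 was close to Chd4 and Chd8 in both values.

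**Figure D4:**
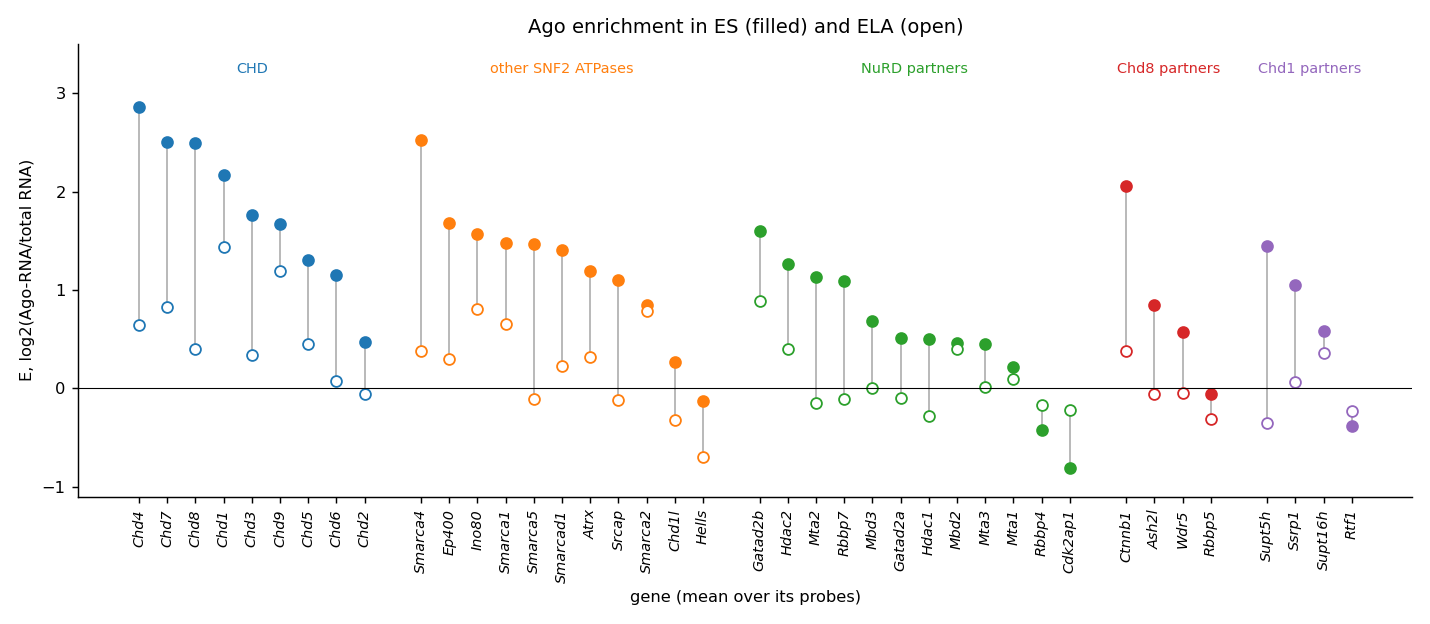
E (y axis) of CHD genes, other SNF2-type ATPases and partner genes of NuRD, Chd8 and Chd1 (x axis, means over the probes of a gene), filled in ES and open in ELA, with a line joining the pair. CHD genes reach from 0.47 to 2.86 in ES, and E is lower in ELA for all genes drawn except Rbbp4, Cdk2ap1 and Rtf1.

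The genes outside the family whose 4 values of E came nearest to the median CHD profile (1.76 in ES, 0.45 in ELA, 1.18 in NPC, 2.20 in NPC/Neu) were found by Euclidean distance over gene means among 17300 genes with a mean signal above the binding threshold. They were Anks1, an ankyrin repeat adaptor (distance 0.16), Gldc, the glycine decarboxylase of mitochondria (0.18), Rptor, the Raptor subunit of mTOR complex (0.20), Mtr, or methionine synthase (0.21), and Itpr1, an inositol trisphosphate receptor (0.23). E of Anks1 was 1.72, 0.50, 1.10 and 2.08 at the 4 stages. These are likenesses over 4 points that share arrays and normalization.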

How the data were processed

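The authors deposited the spot intensity of 8 one-color arrays (Agilent SurePrint G3 Mouse, mm9) as written by Feature Extraction 10.7.3.1 per the file headers (the submitters' notes name version 9.1), before normalization between arrays. Mean and local background intensity were combined by normexp (offset 50, limma 3.58.1, R 4.3.3). Irregular spots (125 to 523 per array) were then dropped, the 8 arrays were brought to 1 distribution of log2 values by quantiles, and spots of a repeated probe were averaged. The study's methods name background correction and quantile normalization with limma, and the other choices were made here. Quantile normalization removes any overall difference in recovery between arrays. The binding threshold lay 3 SD above the mean of the dimmer component of a mixture of 2 Gaussians fitted to Ago-RNA signals (mclust 6.1.1). Differences of 1 or more on the log2 scale were called, with no test, since each condition had 1 array. The labels state 50 ng of labeled RNA.

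Members, lists, words and limits were chosen with earlier results of these data known. Named were all members with each probe, the genes with the lowest and highest ΔE of each partner list, and the 5 nearest profiles. Probes were placed by exact match to GENCODE transcripts and the genome of mm9 (27533 of 55681 probes in coding transcripts, 20051 of 36163 gene names with a length). Alternatives were offsets of 16 and 0, processed signal with quantile normalization or 75th percentile scaling, normalization within each fraction, probes well above background, irregular spots kept, gene means, and other limits. Protein sequences were not used here.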

Additional observations from a re-analysis of the deposited data

How the results depend on the processing

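No paired analysis was possible because each condition had 1 array, which also means that leaving out a replicate could not be done. E was lower in ELA than in ES at all 13 CHD probes (12 of them well above background on all 4 arrays) and higher in NPC/Neu than in NPC under the 6 alternative background and scaling settings, and no value of 1 or more in size changed sign. Of 108 summary counts and 129 medians recomputed, 98 and 113 were within 1.5 times or 1 spot SD of the value above, and the cause of the others was not tested. The 75th percentile scaling moved the median E of probes above the threshold to -0.32 in ES, and normalization within each fraction to 0.25. Relative to that median, the CHD median E in ES was 1.44 in the text, 1.78 and 1.55 respectively.

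With processed signal quantile normalized, the CHD median E was 0.52 in NPC and 1.52 in NPC/Neu and ΔE between them 0.81. With it scaled to the 75th percentile, the last change in total RNA had a median of 0.0716, the Chd8 partners a median ΔE from ES to ELA of -0.41, and 0 probes were released. Normalization within each fraction gave median E of 1.81, 0.60, 0.77 and 1.78, with 1 probe gaining 1 or more from ELA to NPC and 0 released. Over gene means, median E was 1.76 in ES, 1.18 in NPC and 2.20 in NPC/Neu, ΔE from ES to ELA -1.07, and total RNA changes 0.40, -0.0255 and 0.49. With a log2 limit of 1.5, the counts were 0 probes with E past it in ELA and 3 in NPC, 3 with lower E from ES to ELA, 0 and 1 with higher E at the later transitions, and 0 with lower total RNA from ES to NPC/Neu. Relaxing the limit after release to 1.2 gave 3 released probes.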
